A study of Oryza sativa with 32 samples.

Results

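The genes of starch, sucrose and hexose metabolism were followed in root and shoot of rice plants that carry a barley alanine aminotransferase transgene. Members were all probe sets of genes whose symbol or synonym starts with 1 of 17 family names (SWEET, MST, TMT, HXK, SUS, SPS, CIN, INV, VIN, AGPL, AGPS, GBSS, SSI, BEI, ISA, TPS and TPP). The rule found 54 of 17905 annotated genes, with 70 of 57194 probe sets that are not controls, and 12 of the 17 names had a probe set. Of these, 64 probe sets of 49 genes belong to sugar and starch metabolism. The other 6 probe sets, of 5 genes, share a family name with unrelated enzymes and were kept apart. They are TMT (also VTE4, a tocopherol methyltransferase), SSI2 (a stearoyl-ACP desaturase), SPS1 and SPS2 (LOC9267741) (solanesyl diphosphate synthases) and TPPII (tripeptidyl peptidase II). A further 10 genes that the rule selects had no probe set in the annotation used here.

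The transgenic plants were of line AGR1/7, of line AGR1/8 or of line AGR3/8, lines that the series design describes as independent. Each carries OsANT1:HvAlaAT, in which the rice OsANT1 promoter drives alanine aminotransferase from barley. They were compared with wild type plants of the same cultivar, Nipponbare. All plants stood in hydroponics with 5 mM ammonium as nitrogen source, at 28 °C, 70% relative humidity and 750 µE of light through a 14 h day and a 10 h night, and RNA was taken at mid-day of maximum tillering. Each line and wild type had 4 arrays of root and 4 of shoot, 32 arrays in all, labelled as biological replicates. How many plants made up a sample, and the zygosity of the lines, are not given in the sources used here. The transgene's own message was not analysed here.

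Plants move fixed carbon mainly as sucrose, which sucrose phosphate synthase (SPS) makes in source leaves. In sink organs such as roots, sucrose is split by cell wall and other invertases (CIN) or by sucrose synthase (SUS), and hexokinases (HXK) phosphorylate the hexoses that result. SWEET proteins let sugars cross membranes down their gradient, and MST proteins take up monosaccharides with protons. ADP-glucose pyrophosphorylase (AGPS and AGPL subunits) and the starch synthases build starch, while trehalose 6-phosphate phosphatases (TPP) remove trehalose 6-phosphate, a signal of sucrose status in plants.

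Values are the deposited linear intensities, tests ran on log2(intensity + 16), and a probe set was called where limma's adjusted p was under 0.05. A change is a difference on that log2 scale, given with its standard error (SE), and it understates the change of dim probe sets. No detection calls were used, so a low intensity is only a low value. After the dimmest 33.3% of probe sets were left out of each fit, 58 members were tested in root, 60 in shoot and 54 in both tissues, and 62 were tested over all arrays. The 6 members tested in no fit were MST5, SPS2 (LOC4328527), SUS6 probe set 1, SWEET11, TPP7 probe set 2 and GBSS1 probe set 5. Of the members, 11 probe sets are of a type that can take up signal from related transcripts. Among them are the probe set of HXK4 (LOC4326776), SWEET2B probe set 2 and TPP7 probe set 1. The symbol HXK4 is carried by 2 genes, and HXK4 without a locus means LOC4326776 throughout. In these whole organs, fewer cells of a type and less RNA per cell cannot be told apart.

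Tissue labels matched their markers: 11 probe sets of 4 green tissue genes summed to 344.6 to 1302.8 on root arrays, and to 59165.6 to 140756 on shoot arrays. The 6 root marker genes summed to 12334.2 to 19257.7 on root arrays and to 287.6 to 455 on shoot arrays, although the PT2 probe set of LOC4330436 stayed at 20.2 or less on every array. Of the green tissue probe sets, 1 of RBCS was dim in both organs, at 0.2 to 9.4 in root and 10.4 to 25.4 in shoot. Wild type replicate 1 stood apart in root, where it correlated at 0.937 with the rest of its group, while the root arrays had a median of 0.978. The ratio of 3′ to 5′ GAPDH control probe sets, a sign of RNA integrity, spanned 2.43 to 4.80 in AGR1/7 roots, 6.76 to 57.0 in AGR1/8 roots, 2.54 to 4.68 in AGR3/8 roots and 4.84 to 18.3 in wild type roots. Its part in the results was not tested.

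The replicate labelled 1 touched several members. In wild type root, 7 of the 54 members tested in both tissues read over 1 log2 unit above the mean of the other 3 replicates and 0 read as far below. In wild type shoot, 2 did so above and 0 below. The share of all probe sets that read so far from the other replicates is not given here. These counts therefore do not show that the array was set apart in these members more than in other genes. TPP1, a trehalose 6-phosphate phosphatase gene named here after its values were seen, read 149.4 to 234.2 on the 12 transgenic root arrays, against 1452.5 on wild type replicate 1 and 229.8, 202.5 and 210.3 on the other 3. In shoot it read 26 to 103.9 on the transgenic arrays, against 747.4 on wild type replicate 1 and 99.9, 65.4 and 65 on the others. Its change was not called in either tissue, and without that replicate the root change moved to -0.27 ± 0.11 (SE), against -0.94 with it, and the shoot change to -0.34 ± 0.16 (SE), against -1.11. TPP7 probe set 1 showed the same array high: 591.6 in wild type root replicate 1 against 65.3, 50.7 and 50.3 in the others. SWEET1A probe set 1, also named after its values were seen, read 1603.8 in wild type root replicate 1 against 127.8, 49.3 and 178.3, and its change, not called, was -1.66 with that array and -0.73 ± 0.47 (SE) without it. For the root members named, values without that array are given where it ended or made a call of the mean or of a line against wild type.

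**Figure D1:**
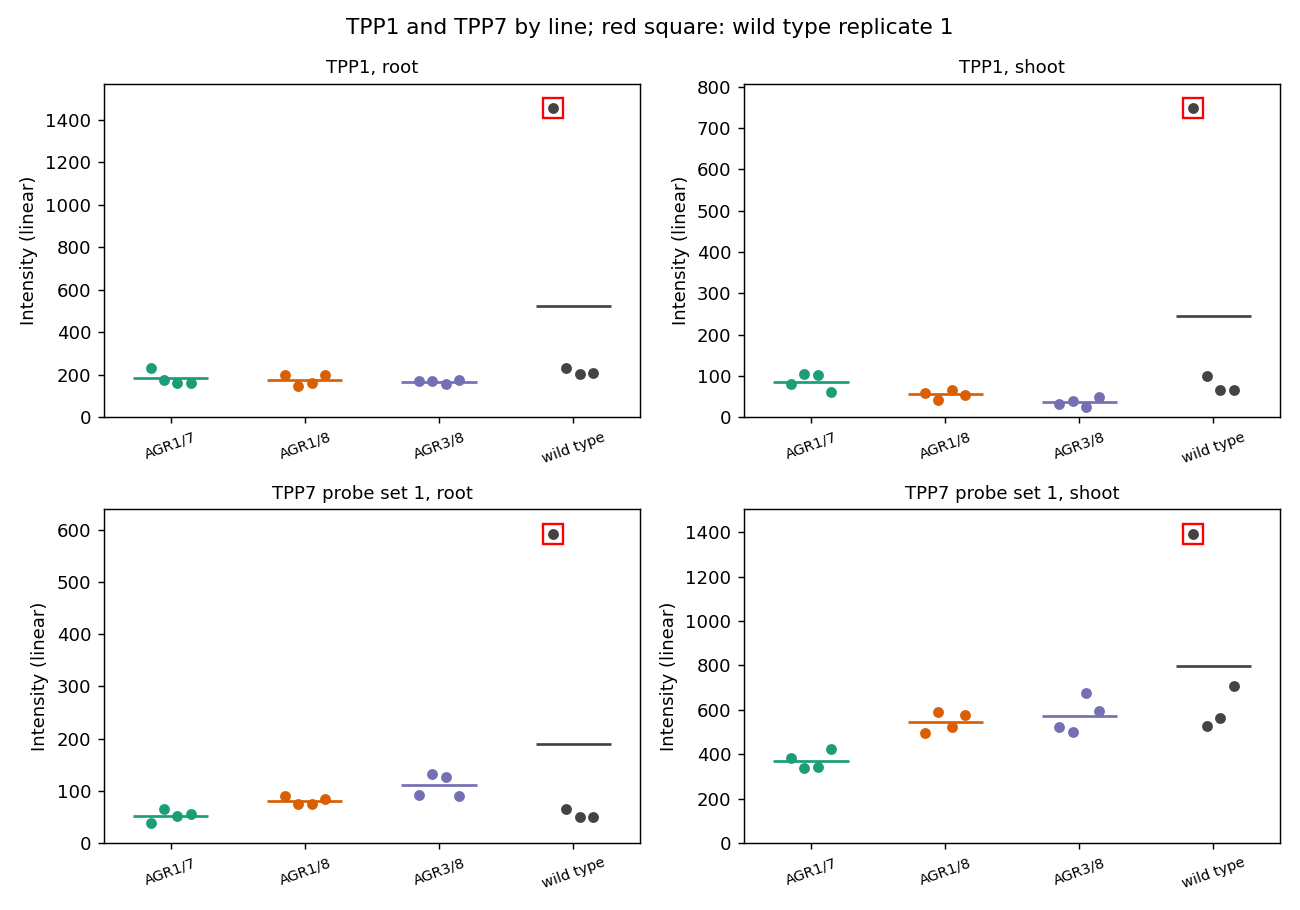
Intensity (linear axis from 0) of TPP1 and TPP7 probe set 1 on every array of root and shoot, by line and wild type, with 1 dot an array, a line at each group mean and a red square around wild type replicate 1. In root that array sits at 1452.5 for TPP1 and 591.6 for TPP7, above every other root array.

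In root, 8 members were called for the mean of the 3 lines against wild type, 5 higher and 3 lower. The 5 higher ones act on sucrose or hexoses inside the cell or its wall: hexokinases HXK4 (LOC4326776) and HXK7, sucrose synthases SUS2 and SUS4, and the invertase CIN4. The 3 lower ones, SWEET2A, SWEET2B and SWEET4, are sugar transporters. The 8 were 13.8% of the 58 members tested, while 5.32% of all 38129 probe sets tested were called (2027), 3.28% higher and 2.04% lower. At an unadjusted p under 0.05, 21 of the 58 members passed, 36.2% of them, against 23.3% of all probe sets. Changes were small: the members' median was -0.07 and that of all probe sets 0.03, and the called members lay between -0.58 and 0.47. Without wild type replicate 1, 2 members were called, HXK4 and TPP2 (-0.63 ± 0.15, adjusted p = 0.0411). In 1 fit of all 32 arrays 9 members were called, 4 of the 8 among them (HXK7, SUS4, CIN4 and SWEET4). When the line was taken as a random unit, 0 of the 8 calls were kept. The shares of all probe sets called in these alternative fits are not given here, so these member counts have no background beside them. When each of the 16 root arrays was left out in turn, HXK4 was called every time, HXK7 and SWEET4 lost the call without wild type replicate 1 alone, and the other 5 lost it without 11 to 14 of the 16 arrays.

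**Figure D2:**
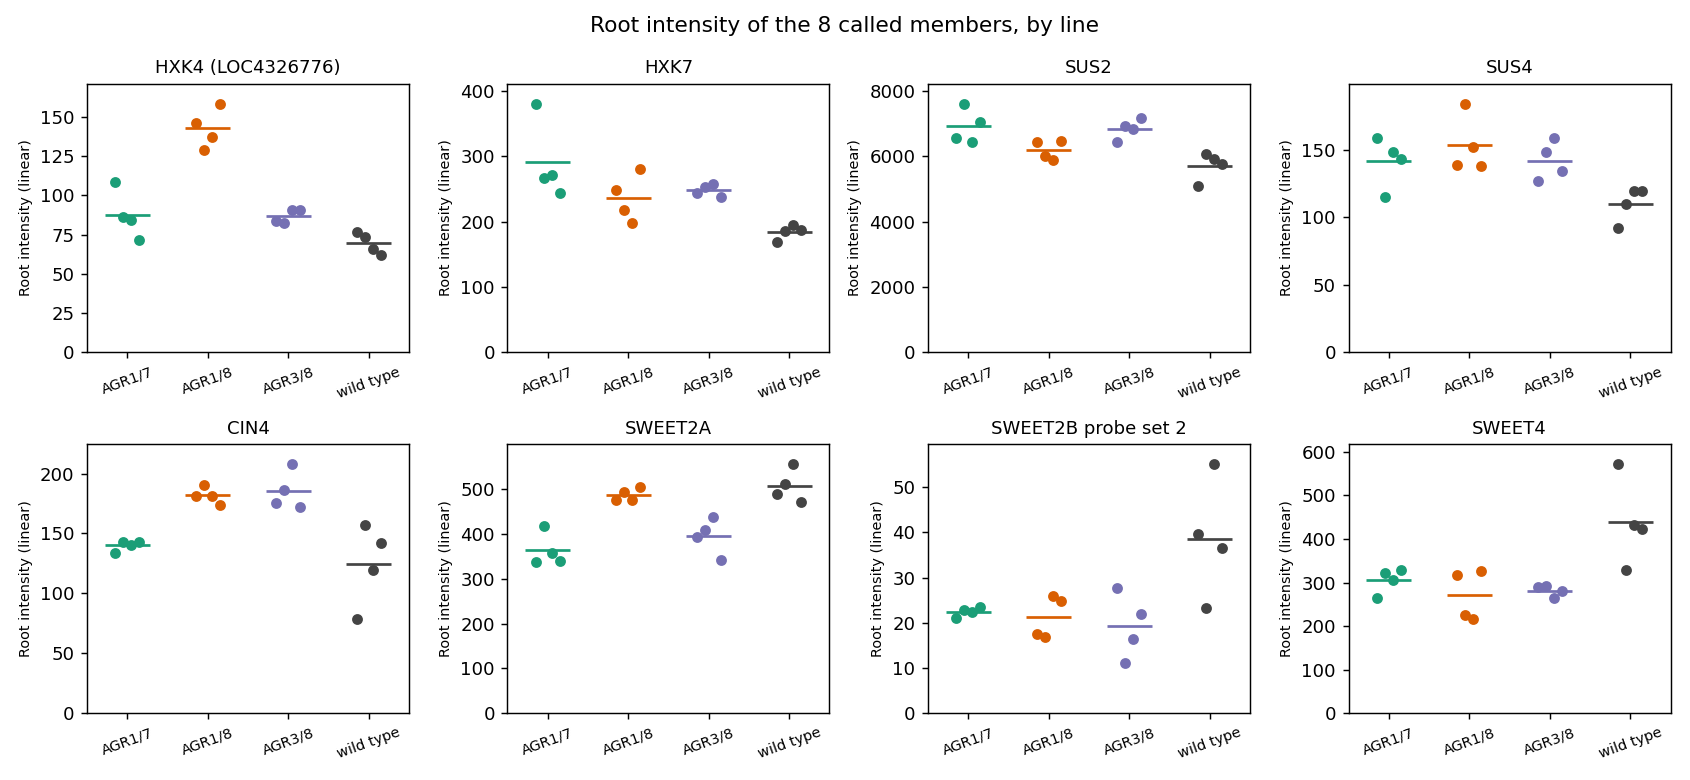
Intensity of the 8 members called in root on all 16 root arrays, 1 panel a member with its own axis from 0, 1 dot an array and a line at each group mean. HXK4 is highest in AGR1/8, and SWEET4 is lower in all 3 lines than in wild type.

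Hexokinases phosphorylate glucose and fructose, and some plant members also sense glucose. HXK4 (LOC4326776) has 1 probe set, of the type that can take up signal from related transcripts, so its values may not be its own alone. HXK4 (LOC4326776), also listed as HXK8, read 108.2, 86.1, 84.4 and 71.5 in AGR1/7 roots, 146.3, 129, 137 and 158.4 in AGR1/8 roots, and 83.6, 82.4, 90.6 and 90.6 in AGR3/8 roots, against 76.5, 73.7, 66 and 62.2 in wild type roots. All 4 arrays of AGR1/8 lay above every other root array, AGR3/8 lay just above wild type, and AGR1/7 overlapped wild type in 1 array. The mean change was 0.47 ± 0.09 (SE, adjusted p = 0.00939), and it was 0.51 ± 0.10 (adjusted p = 0.0130) without wild type replicate 1. All 12 transgenic arrays were above the wild type mean. The rise was uneven: the change was 0.89 ± 0.11 in AGR1/8 (adjusted p = 0.000105), and 0.27 ± 0.11 in AGR1/7 (adjusted p = 0.194) and in AGR3/8 (adjusted p = 0.156), both not called. The moderated F test among the lines gave an adjusted p of 0.00299 for this gene. In 1 fit of all 32 arrays, the call in AGR1/8 was kept (adjusted p = 0.0399), while those of the mean change (adjusted p = 0.144) and of the F test (adjusted p = 0.209) were lost.

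HXK7 read 381, 267, 271.8 and 244.7 in AGR1/7 roots, 249.3, 217.8, 197.3 and 281.1 in AGR1/8 roots, and 243.7, 253.8, 257.9 and 238 in AGR3/8 roots, against 169.7, 185.1, 194.5 and 188.1 in wild type roots. The 12 transgenic arrays did not overlap the 4 of wild type. On average HXK7 changed by 0.44 ± 0.10 (SE, adjusted p = 0.0250), and AGR1/7 alone was called, at 0.60 ± 0.13 (adjusted p = 0.0243). Without wild type replicate 1 the mean change was 0.40 with an adjusted p of 0.0772. The other 6 hexokinase probe sets tested in root lay between -0.18 and -0.02 and were not called. They included HXK5 (-0.05 ± 0.11, adjusted p = 0.838) and HXK6 (-0.18 ± 0.08, adjusted p = 0.209), which in rice are known as glucose sensors.

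Sucrose synthase splits sucrose into UDP-glucose and fructose. SUS2 read 6560.3, 7619.7, 6453.3 and 7068.4 in AGR1/7 roots, 6438.2, 6017.5, 5889.6 and 6460.4 in AGR1/8 roots, and 6427.6, 6928.5, 6833 and 7169.4 in AGR3/8 roots, against 5094.8, 6065, 5911.8 and 5760.9 in wild type roots. AGR1/7 and AGR3/8 lay above all wild type arrays, and AGR1/8 overlapped them. The mean change was 0.22 ± 0.06 (SE, adjusted p = 0.0450), with an adjusted p of 0.180 without wild type replicate 1.

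SUS4 read 159.2, 115.4, 148.2 and 143.2 in AGR1/7 roots, 139, 184.4, 152.3 and 138.3 in AGR1/8 roots, and 126.8, 148.7, 158.6 and 134.6 in AGR3/8 roots, against 92, 109.6, 119.5 and 119.5 in wild type roots. A single AGR1/7 array fell inside the wild type range and the other 11 lay above it. The mean change was 0.36 ± 0.10 (SE, adjusted p = 0.0474), and 0.28 with an adjusted p of 0.171 without wild type replicate 1. The other 5 sucrose synthase probe sets tested in root were not called. Both probe sets of SUS1 had negative changes, -0.25 ± 0.17 (adjusted p = 0.407) and -0.39 ± 0.20 (adjusted p = 0.247).

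CIN4, a cell wall invertase that splits sucrose outside the cell, read 134, 143, 140.4 and 142.7 in AGR1/7 roots, 181.5, 190.1, 181.1 and 174 in AGR1/8 roots, and 175.6, 186.3, 207.7 and 171.9 in AGR3/8 roots, against 78.4, 157, 119.7 and 142.3 in wild type roots. AGR1/8 and AGR3/8 lay above every wild type array, while AGR1/7 lay within the wild type range, whose lowest value was that of replicate 1. CIN4 changed on average by 0.42 ± 0.12 (SE, adjusted p = 0.0452), and 0.25 with an adjusted p of 0.133 without that replicate. The other 4 invertase probe sets lay between -0.21 and 0.17 and were not called. CIN7 read 430.9, 528.1, 641.6 and 670.6 in AGR1/7 roots, against 280.8, 361, 526.4 and 403.5 in wild type roots. The ranges overlapped, and the change of 0.53 ± 0.17 (SE) in AGR1/7 was not called (adjusted p = 0.0956).

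The SWEET transporters held all 3 of the members called lower. Of 12 SWEET probe sets tested in root, 11 had a negative change, and their median was -0.40 against 0.03 for all probe sets. The members as a whole also leaned this way, with 41 of 58 negative and a median of -0.07. SWEET14, SWEET1A and SWEET2B each have 2 probe sets, so the 12 are not separate genes. Without wild type replicate 1, 9 of the 12 SWEET probe sets were negative and their median was -0.31. SWEET4, a hexose transporter known in rice from grain filling, read 265.1, 322.9, 305.3 and 329.9 in AGR1/7 roots, 317.1, 226.5, 216.2 and 325.9 in AGR1/8 roots, and 289.6, 290.9, 263.9 and 279.8 in AGR3/8 roots, against 571.7, 328.7, 432 and 424 in wild type roots. AGR1/8 and AGR3/8 lay below every wild type array, and AGR1/7 crossed the lowest of them by 1 array. The mean change was -0.58 ± 0.13 (SE, adjusted p = 0.0183). Without wild type replicate 1, the highest of the 16 arrays, it was -0.44 ± 0.12 with an adjusted p of 0.0666.

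SWEET2A read 338.3, 417.4, 357.7 and 339.5 in AGR1/7 roots, 475.7, 494.4, 474.8 and 505.5 in AGR1/8 roots, and 393.2, 407.8, 437.2 and 340.8 in AGR3/8 roots, against 489.8, 511.4, 555.5 and 472.4 in wild type roots. AGR1/7 and AGR3/8 lay below every wild type array, and AGR1/8 lay inside the wild type range. Over the lines SWEET2A changed by -0.29 ± 0.08 (SE, adjusted p = 0.0377), made up of -0.47 ± 0.09 in AGR1/7 (adjusted p = 0.0187), -0.05 ± 0.09 in AGR1/8 (adjusted p = 0.833) and -0.35 ± 0.09 in AGR3/8 (adjusted p = 0.0388). The F test among the lines gave an adjusted p of 0.0422. The mean change was -0.31 without wild type replicate 1, with an adjusted p of 0.0661. In 1 fit of all 32 arrays the calls of the mean (adjusted p = 0.209), of AGR1/7 (0.108), of AGR3/8 (0.209) and of the F test (0.330) were lost. In Arabidopsis a SWEET2 protein sits in the vacuole membrane of root cells and transports glucose.

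SWEET2B was dim in root, and its probe set 2 is of the type that can take up signal from related transcripts. Its probe set 2 read 21, 22.8, 22.4 and 23.5 in AGR1/7 roots, 17.6, 16.8, 26 and 24.8 in AGR1/8 roots, and 27.8, 11, 16.5 and 22 in AGR3/8 roots, against 39.6, 23.2, 55.1 and 36.6 in wild type roots. Every transgenic array was below the wild type mean, although the ranges overlapped through wild type replicate 2. The change was -0.54 ± 0.14 (SE, adjusted p = 0.0394) for probe set 2 and -0.50 ± 0.16 (adjusted p = 0.0736) for probe set 1, so both probe sets had a like change and probe set 2 alone passed the threshold. Neither passed without wild type replicate 1, at -0.52 for probe set 2 (adjusted p = 0.116) and -0.65 for probe set 1 (adjusted p = 0.0532). SWEET12 was the 1 SWEET member with a positive mean change, 0.29 ± 0.27 (adjusted p = 0.563).

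**Figure D3:**
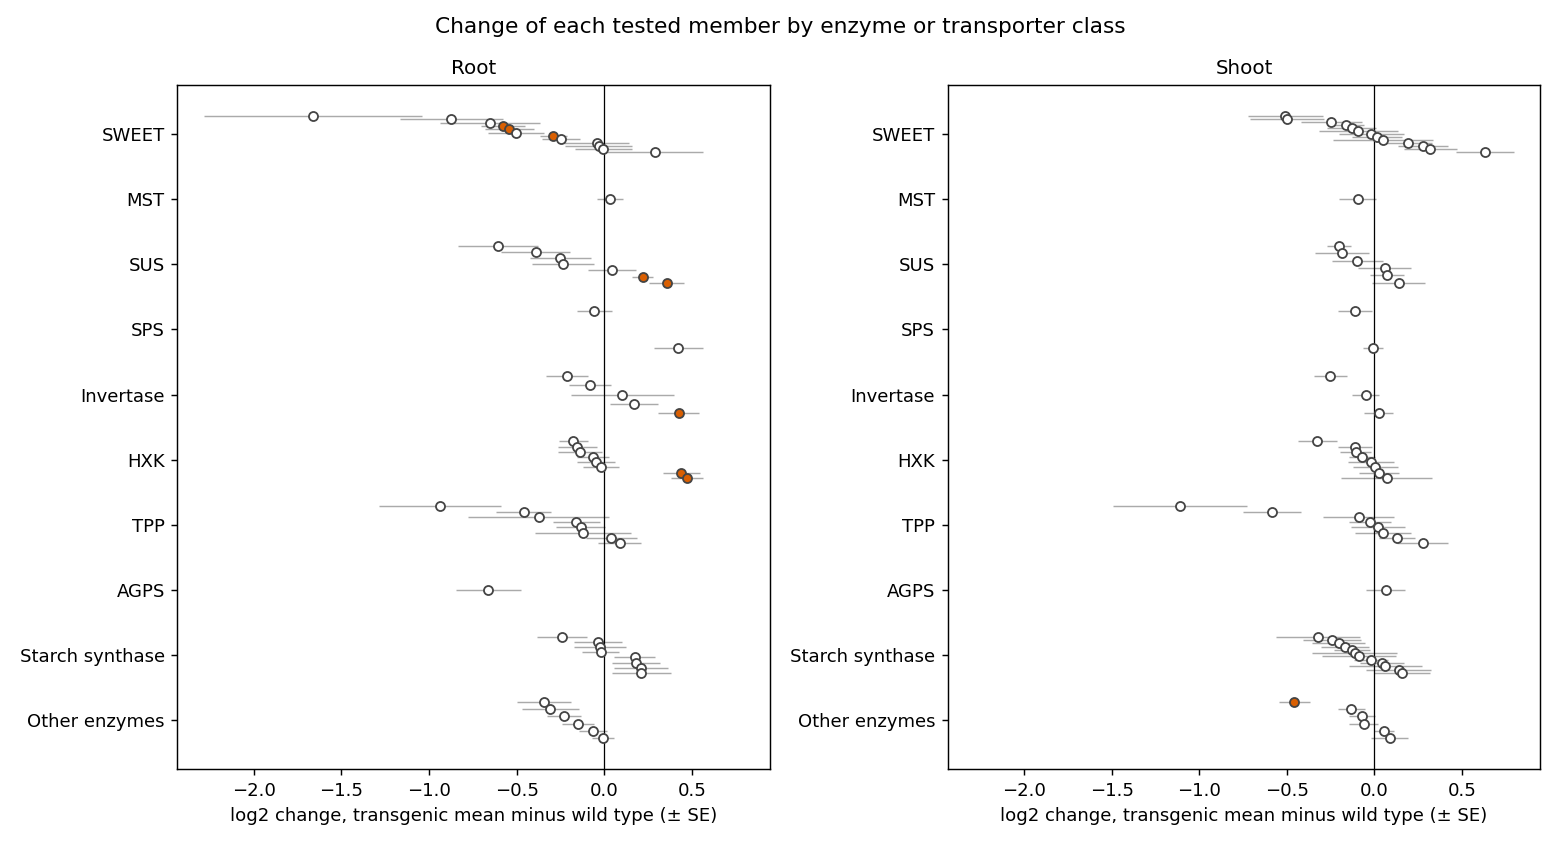
Change of the transgenic mean against wild type (log2, with SE bars) for every member tested, by gene class, in root and in shoot, with called members in orange. In root the called hexokinases, sucrose synthases and invertase lie right of 0 and the called SWEET members left of it, and in shoot the only called member is SPS2 (LOC9267741).

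The remaining classes gave no call for the mean of the lines in root. Of all probe sets, 23.3% had an unadjusted p under 0.05 in that comparison. Of 8 starch synthase probe sets, limma called 0, and 0 had an unadjusted p under 0.05. Their changes lay between -0.24 and 0.21, and SSII-2 probe set 1 was at -0.02 ± 0.11 (SE, adjusted p = 0.937). MST3, a monosaccharide transporter, was at 0.03 ± 0.07 (adjusted p = 0.837). SPS6, a sucrose phosphate synthase, had a change of 0.42 ± 0.14 (adjusted p = 0.0794; 0.39 and 0.226 without wild type replicate 1), with 11 of 12 transgenic arrays above the wild type mean. AGPS2, a small subunit of ADP-glucose pyrophosphorylase, was at -0.66 ± 0.19 (adjusted p = 0.0503). Leaving out wild type replicate 1, its highest root array, gave -0.39 ± 0.15 (adjusted p = 0.199). Of 8 trehalose phosphatase probe sets, with a median of -0.15, limma called 0, and 2 had an unadjusted p under 0.05.

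Line by line, the count of members called in root was 2 in AGR1/7 (2.47% of all probe sets were called), 2 in AGR1/8 (2.48%) and 8 in AGR3/8 (5.41%). The 8 were 2 higher and 6 lower, against 3.2% and 2.21% of all probe sets. The lines share the wild type arrays, so their counts are not independent. HXK7 and SWEET2A were called in AGR1/7, and HXK4 and SWEET4 in AGR1/8, where SWEET4 changed by -0.66 ± 0.15 (SE, adjusted p = 0.0293). In AGR3/8, SUS2 (0.26 ± 0.07, adjusted p = 0.0498) and CIN4 (0.55 ± 0.14, adjusted p = 0.0362) were higher. SWEET2A, SWEET2B probe set 2 (-0.62 ± 0.17, adjusted p = 0.0492), SWEET4 (-0.59 ± 0.15, adjusted p = 0.0375), AGPS2, TPP2 and probe set 1 of TPPII were lower. Without wild type replicate 1, AGR3/8 lost the calls of SUS2 (0.21, adjusted p = 0.125), SWEET2B probe set 2 (-0.60, adjusted p = 0.101) and SWEET4 (-0.46, adjusted p = 0.0865), and AGR1/8 lost that of SWEET4 (-0.53, adjusted p = 0.0645). In that fit SWEET2B probe set 1 (-0.80, adjusted p = 0.0358) and TPP7 probe set 1 (0.82, adjusted p = 0.0129, against 0.04 with the array) were called in AGR3/8.

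AGPS2 read 29.5, 27.3, 22.8 and 35.4 in AGR3/8 roots, against 141.8, 60.7, 50.6 and 66.9 in wild type roots. The groups did not overlap, and the highest wild type value was that of replicate 1. In the other lines it read 29, 48.5, 45.7 and 57.6 in AGR1/7 roots and 63.9, 37.3, 59.4 and 57.1 in AGR1/8 roots, both overlapping wild type. The change in AGR3/8 was -1.02 ± 0.23 (SE, adjusted p = 0.0212), and -0.75 without wild type replicate 1 (adjusted p = 0.0302). This call was lost without AGR3/8 replicate 2 or 3 (adjusted p up to 0.0732).

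TPP2 read 239.6, 161.1, 174.1 and 210.9 in AGR3/8 roots, against 260.4, 343, 586.3 and 382.6 in wild type roots. AGR3/8 lay below all wild type arrays, whereas AGR1/7 (358.7, 266.2, 285.4 and 266.4) and AGR1/8 (329.7, 288.5, 404.1 and 367.7) lay within the wild type range. The change was -0.90 ± 0.19 (SE, adjusted p = 0.0173) in AGR3/8, -0.35 ± 0.19 (adjusted p = 0.325) in AGR1/7 and -0.12 ± 0.19 (adjusted p = 0.813) in AGR1/8. The AGR3/8 call was lost without AGR3/8 replicate 2 or 3 (adjusted p up to 0.0633). A difference of TPP2 among the lines was not called (F test, adjusted p = 0.0748). Among the lines, 2 of 58 members were called, HXK4 and SWEET2A, while 2.99% of all probe sets were. The count was 6 without wild type replicate 1, with TPP2, TPP7 probe set 1 and CIN4 among them. The share of all probe sets called in that fit is not given here.

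TPPII, a peptidase outside sugar metabolism, changed by -0.44 ± 0.12 (SE, adjusted p = 0.0428) in AGR3/8 roots at probe set 1. Its probe set 2 was at -0.20 ± 0.10 (adjusted p = 0.232), so the call rests on 1 of 2 probe sets.

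In shoot, 1 of 60 members was called for the mean of the lines, where 1.57% of all probe sets were, and it was not a sugar gene. SPS2 (LOC9267741), a solanesyl diphosphate synthase, read 366.2, 294.9, 301.5 and 253.6 in AGR1/7 shoots, 337.1, 368.9, 314.8 and 343 in AGR1/8 shoots, and 459.3, 437.5, 350.4 and 366.1 in AGR3/8 shoots, against 443.2, 540.2, 491.2 and 451.9 in wild type shoots. AGR1/7 and AGR1/8 lay below all wild type arrays, and AGR3/8 overlapped them in 1 array. The mean change was -0.46 ± 0.09 (SE, adjusted p = 0.0106).

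None of the 54 sugar members passed in shoot with limma's adjusted p. An unadjusted p under 0.05 was seen in 9 of them, 16.7% against 13.7% of all probe sets. The changes of the 54 had a median of -0.04 and lay between -1.11 (TPP1) and 0.63 (SWEET16). By line, 2 members were called in AGR1/7 shoots (1.6% of all probe sets), 1 in AGR1/8 shoots (1.82%) and 0 in AGR3/8 shoots (0.868%). In AGR3/8 shoots 8 of 60 members had an unadjusted p under 0.05, 13.3% against 14.7% of all probe sets. SPS2 (LOC9267741) was lower in AGR1/7 (-0.64 ± 0.11, SE, adjusted p = 0.00349) and in AGR1/8 (-0.48 ± 0.11, adjusted p = 0.0287). Among the lines 0 of 60 members were called in shoot, with 2.26% of all probe sets called. An unadjusted p under 0.05 was seen there in 11 members, 18.3% against 17.5% of all probe sets.

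TPP7, known in rice for tolerance of germination under low oxygen, was the other member called in AGR1/7 shoots. Its probe set 1 read 381.3, 338.2, 343.7 and 422.7 in AGR1/7 shoots, 496.5, 591.1, 522.5 and 575.2 in AGR1/8 shoots, and 521.8, 498.3, 675.2 and 594.8 in AGR3/8 shoots, against 1391.9, 527.5, 563.5 and 708.8 in wild type shoots. AGR1/7 lay below all wild type arrays and the other lines overlapped them. Its change in AGR1/7 was -0.96 ± 0.20 (SE, adjusted p = 0.0183), and -0.66 without wild type replicate 1, the high array, where it was still called. The call was lost without AGR1/7 replicate 2 or 3 (adjusted p up to 0.0596) and in 1 fit of all 32 arrays (adjusted p = 0.287).

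HXK4 (LOC4326776), called higher in root, was dim in shoot. It read 2.8, 28.9, 22 and 4.4 in AGR1/7 shoots, 27.5, 54.9, 24.3 and 34.3 in AGR1/8 shoots, and 9.2, 2.3, 14.3 and 24.1 in AGR3/8 shoots, against 16.7, 27.2, 2.5 and 25.5 in wild type shoots. The groups overlapped, with AGR1/8 again holding the highest array. HXK4 averaged 35.25 in AGR1/8 shoots, 14.5 in AGR1/7 and 12.5 in AGR3/8, against 18.0 in wild type shoots. The change in AGR1/8 was 0.63 and was not called. Over the lines, the mean change of HXK4 was 0.07 ± 0.26 (SE, adjusted p = 0.947). The difference between its root and shoot change was 0.40 and was not called (adjusted p = 0.507).

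The transgenic effect differed between root and shoot in 2 of 62 members, SUS4 and SWEET4, while 1.95% of all probe sets were called for this difference. SUS4 read 262.9, 253.9, 248.4 and 254.8 in AGR1/7 shoots, 281.3, 234.5, 258.1 and 254.1 in AGR1/8 shoots, and 284.7, 235.1, 224.4 and 247.1 in AGR3/8 shoots, against 330.8, 289.5, 282.3 and 273.7 in wild type shoots. The 12 shoot arrays of the lines were all below the mean of wild type, the reverse of root, where all 12 were above it. The shoot change was -0.20 ± 0.07 (SE, adjusted p = 0.180) and the root change minus the shoot change was 0.56 ± 0.12 (adjusted p = 0.0127). Without root wild type replicate 1 this was 0.49 (adjusted p = 0.0435), and without shoot wild type replicate 1 it was 0.50 (adjusted p = 0.0348).

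SWEET4 ran the other way. It read 1819.4, 2941.1, 2516.5 and 2384.6 in AGR1/7 shoots, 2117.4, 2371.8, 2612.3 and 2598.7 in AGR1/8 shoots, and 1562.6, 2420.8, 2805.4 and 2102.3 in AGR3/8 shoots, against 1300, 1898.6, 2093.2 and 2305.2 in wild type shoots. In shoot 10 of the 12 arrays of the lines exceeded the mean of wild type, and the ranges overlapped. The shoot change was 0.32 ± 0.15 (SE, adjusted p = 0.363), and the root change minus the shoot change was -0.89 ± 0.20 (adjusted p = 0.0195). Leaving out replicate 1 of wild type ended this call, both in root (-0.76, adjusted p = 0.0688) and in shoot (-0.72, adjusted p = 0.0573).

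**Figure D4:**
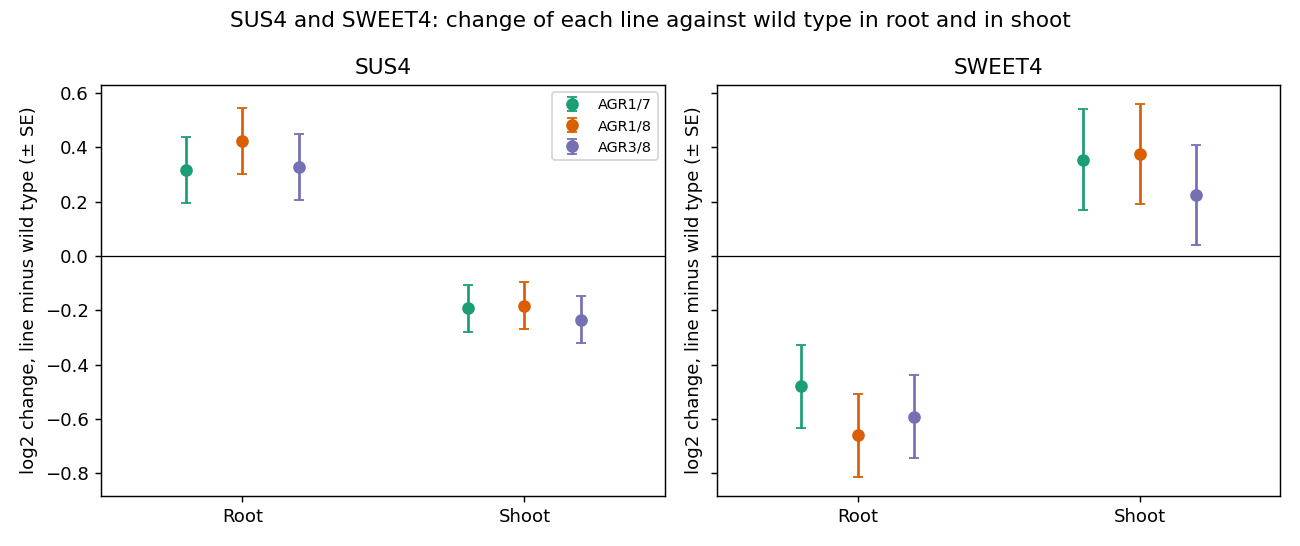
Change of each line against wild type (log2, with SE bars) for SUS4 and SWEET4 in root and shoot, with 1 dot a line. SUS4 lies above 0 in root and below 0 in shoot for all 3 lines, and SWEET4 lies below 0 in root and above it in shoot.

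Member differences between the organs ran from -5.42 to 5.97. In wild type, 51 of 62 members were called between root and shoot, 24 higher in root and 27 higher in shoot, against 59.2% of all probe sets (31.9% higher in root and 27.3% higher in shoot). SUS1 was the most root-high: probe set 1 read 3779.7, 3345, 2716.6 and 2905.2 in wild type root, against 25.1, 46, 37.2 and 33.2 in wild type shoot, a difference of 5.97 ± 0.20 (SE, adjusted p = 8.94e-22). Its probe set 2 differed by 5.32 ± 0.22 (adjusted p = 1.30e-19). CIN2, a cell wall invertase known in rice for grain filling, read 398.4, 302.9, 155 and 345.4 in wild type root, against 9.4, 6.9, 11.7 and 1.8 in wild type shoot.

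Most classes held members of either side. Besides SUS1 and CIN2 (3.70 ± 0.30, SE), the root-high members included MST3 (3.07 ± 0.12), TPP9 (3.42 ± 0.15), TPP4 (3.16 ± 0.28) and TPP2 (3.02 ± 0.19), as well as SUS2 (1.97 ± 0.10), CIN7 (1.69 ± 0.14), HXK7 (1.43 ± 0.15) and HXK4 (1.40 ± 0.25), each called. Of 4 invertase probe sets 2 were root-high and 2 shoot-high, among them CIN1 (-1.57), and of 8 hexokinase probe sets 5 were root-high and 3 shoot-high, among them HXK6 (-0.73). TPP7 probe set 1 was shoot-high as well (-2.63, and -3.40 without root wild type replicate 1). MST3 read 2321.2, 2446.7, 2855.3 and 2561.1 in wild type root, against 287.8, 271.2, 302.1 and 295.3 in wild type shoot. SPS6 was also higher in root (0.61 ± 0.15, adjusted p = 0.000803), while SPS8, of the same enzyme family, was lower (-0.74 ± 0.10, adjusted p = 5.68e-08).

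Starch synthases had more signal in shoot. Of 12 starch synthase probe sets, 8 were called higher in shoot and 0 higher in root, against 27.3% and 31.9% of all probe sets. All 12 had a negative root minus shoot difference. They belong to 5 genes, of which GBSS1, SSII-2 and SSII-3 have several probe sets, so the 12 are not separate genes. Some were dim in both organs, such as GBSS1 probe set 2, at 2 to 17.1 on root arrays and 1.5 to 24.3 on shoot arrays. SSI, a soluble starch synthase, read 35.4, 14.1, 26.2 and 29.8 in wild type root, against 881.8, 1125.9, 1170.4 and 1088.8 in wild type shoot, a difference of -4.69 ± 0.17 (SE, adjusted p = 1.07e-20). AGPS2, which supplies ADP-glucose to these enzymes, read 141.8, 60.7, 50.6 and 66.9 in wild type root, against 1200.9, 1416.9, 1770.8 and 1434.4 in wild type shoot (-4.01 ± 0.19, adjusted p = 6.05e-18). SSII-2 probe set 1 differed by -3.24 ± 0.12 and SSII-1 by -1.01 ± 0.15, both called.

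The transporters were split between the organs. Of 13 SWEET probe sets, 4 were higher in root and 6 higher in shoot, against 31.9% and 27.3% of all probe sets. SWEET1B read 1.5, 0.5, 0.9 and 0.7 in wild type root, against 473.9, 819.6, 910.1 and 710.2 in wild type shoot, a difference of -5.42 ± 0.14 (SE, adjusted p = 1.90e-24). Its root values lie far below the added 16, so that constant sets the size: it was -7.19 with 4 added and -3.58 with 64, and called each time. The constant also moved the size for other members dim in an organ, such as CIN2 (4.74 with 4 and 2.30 with 64), TPP4 (4.15 and 1.85), HXK4 (1.97 and 0.71), SWEET12 (2.39 and 0.57) and SSII-1 (-1.17 and -0.65). SWEET2B (-3.31 ± 0.25 and -3.65 ± 0.24) and SWEET4 (-2.07 ± 0.18) were shoot-high as well, whereas SWEET2A (0.98 ± 0.18) and SWEET12 (1.39 ± 0.29) were root-high. Of the members called lower in transgenic roots, SWEET2B and SWEET4 had more signal in shoot and SWEET2A more in root. Of those called higher there, HXK4, HXK7 and SUS2 were root-high. SUS4 (-1.30 ± 0.10) and CIN4 (-0.93 ± 0.12), also called higher in transgenic roots, were shoot-high.

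**Figure D5:**
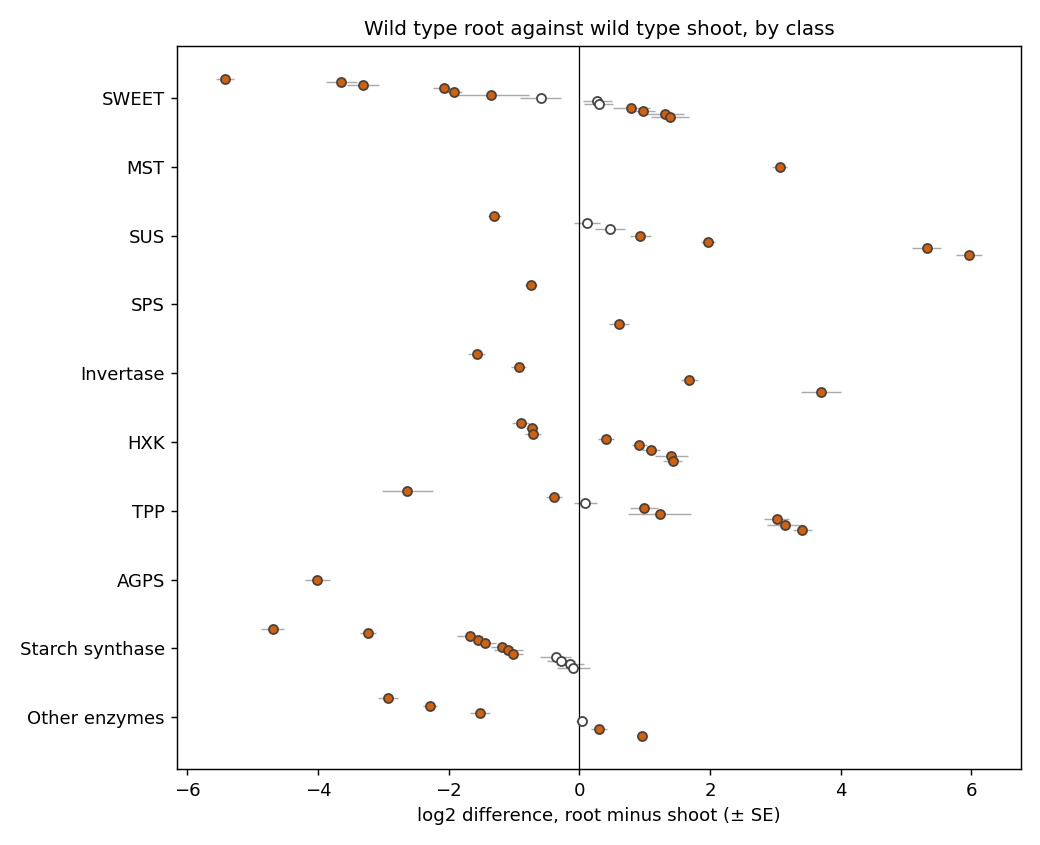
Difference between wild type root and wild type shoot (log2, root minus shoot, with SE bars) for the 62 members tested over all arrays, by gene class, with called members in orange. SUS1 lies farthest right, at 5.97 and 5.32, and SWEET1B lies farthest left, at -5.42 with 16 added. All 12 starch synthase probe sets, of 5 genes, lie left of 0.

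Of the 6 probe sets of the 5 genes outside sugar metabolism, 5 were called between the organs, where 59.2% of all probe sets were. SPS1 was higher in root (0.96 ± 0.08, SE, adjusted p = 1.08e-11), and SSI2 (-2.92 ± 0.15, adjusted p = 9.06e-17) and SPS2 (LOC9267741) (-1.52 ± 0.16, adjusted p = 6.16e-10) were higher in shoot.

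Other genes of the pathway, taken from a list of sucrose transporters, fructokinases, starch-degrading enzymes and SnRK1 kinases, gave 22 probe sets of 16 genes. In root 4 of the 19 tested were called for the mean of the lines, 3 higher and 1 lower, where 5.32% of all probe sets were. SUT1, a sucrose transporter, averaged 49.95 in AGR1/7, 72.8 in AGR1/8 and 76.2 in AGR3/8 roots, against 19.5 in wild type roots (n = 4 each), a change of 1.19 ± 0.16 (SE, adjusted p = 0.00086) that was as large without wild type replicate 1 (1.19, adjusted p = 0.00344). Of 3 probe sets of SNRK1B, a subunit of the kinase that responds to low energy, 2 were higher (0.50 ± 0.11, adjusted p = 0.0225, and 0.46 ± 0.13, adjusted p = 0.0450) and the third was at 0.25 ± 0.13 (adjusted p = 0.267). All 3 are of the type that can take up signal from related transcripts. DPE2, which handles maltose from starch breakdown, was lower (-0.39 ± 0.10, adjusted p = 0.0329). Without that array only 1 of the 3 SNRK1B probe sets was called (0.31, adjusted p = 0.0299), and DPE2 was still called (-0.49, adjusted p = 0.0186). In shoot, where 1.57% of all probe sets were called, limma called 0 of 18. An unadjusted p under 0.05 was seen in 1 of the 18, against 13.7% of all probe sets. The effect differed between root and shoot for SUT1 (1.17, adjusted p = 0.00231) and DPE2 (-0.68, adjusted p = 0.0307), with 1.95% of all probe sets called. Without shoot wild type replicate 1 the DPE2 call was lost (-0.56, adjusted p = 0.0817).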

How the data were processed

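Root and shoot total RNA carried a biotin label and was hybridized to rice arrays of 1 colour, per the labels. The deposited table holds linear intensities, 1 value per probe set and array, from 0 to 23283.7 with 113 values of 0. With 2% of values cut from either side, all 32 arrays had the same mean, 99.99, so the deposited intensities share a scale across arrays. Which software made and scaled them is not stated in the sources used here, and arrays have no read depth: their number, 4 a group, limits the precision.

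From the deposited intensities, log2(intensity + 16) was computed here. Of 57381 probe sets, 187 controls were left out, then the dimmest 33.3% by mean log2 value, which left 38129 in each fit. limma 3.58.1 in R 4.3.3 (lmFit, eBayes with trend) fitted the 4 groups of each tissue, 16 arrays a fit, and all 32 arrays for the wild type root minus shoot contrast and for the difference of the transgenic effect between tissues. The line contrasts share the wild type arrays. Benjamini-Hochberg adjustment covered all probe sets tested. The script was tested on simulated data.

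Probe sets were named from the platform annotation (22436 with 1 gene, 95 with several, which were not used), with symbols and synonyms from a rice gene table of assembly ASM3414082v1. Members and lists were chosen with earlier results of these data known. Named with values were members called for the transgenic mean in either tissue or for the difference between tissues, up to 5 called members a line, the 5 smallest p among the lines per tissue, HXK4, the member of highest mean intensity of each class and tissue, the 5 most root-high and shoot-high members, and probe sets of a gene that disagreed in a call. Others, where named, were chosen after their values were seen. Alternatives were the added constant, the filter, scaling, array weights, a replicate block, 1 fit of all arrays and leaving out each array. For the mean of the lines alone, the line was also taken as a random unit.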

Additional observations from a re-analysis of the deposited data

Results flagged for a closer look

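Of 272 groups of 4 arrays examined among the named members, 9 held a lone array, by the gap to the nearest of the others over the group's range. Chance gives about 1 in 20 such groups. The ratio was 0.956 for CIN7 in AGR1/8 root replicate 3 (424 against 335.1 to 338.6), 0.922 for HXK6 in AGR1/8 shoot replicate 2 (429.4 against 373.4 to 377.5) and 0.922 for TPP9 in AGR1/7 shoot replicate 3 (24 against 27.4 to 27.7). SUS1 probe set 2 had 3 such groups: 0.8292 in AGR1/7 root replicate 1 (773.8 against 1516.6 to 1740.8), 0.883 in AGR1/8 shoot replicate 2 (52 against 33.2 to 35.1) and 0.848 in AGR3/8 shoot replicate 3 (22.1 against 36.9 to 40.1). SWEET12 gave 0.912 in AGR3/8 shoot replicate 3 (12.5 against 0.7 to 1.5), and TPPII probe set 2 gave 0.888 in wild type root replicate 3 (699.2 against 528.5 to 545.4). TPP7 probe set 1 gave 0.908 in wild type root replicate 1 (591.6 against 50.3 to 65.3).

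The deviations of wild type replicate 1 from its group in root and in shoot correlated at 0.221 over 38129 probe sets, against 0.104, 0.0342 and 0.0856 for replicates 2, 3 and 4. This is a description across probe sets, with no p.

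The transgenic effect in root minus that in shoot was 0.56 for SUS4 and -0.89 for SWEET4, each called. Among the lines in root, the F test gave an adjusted p of 0.00299 for HXK4 (LOC4326776), highest in AGR1/8, and 0.0422 for SWEET2A, lowest in AGR1/7, against 0.209 and 0.330 in 1 fit of all 32 arrays.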

How the results depend on the processing

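Counts of called members are given here, without the share of all probe sets called under each alternative. Whether a count moved with that share was not examined. Of the 8 for the mean of the lines in root, 4 were called with no filter on dim probe sets, 5 with median centring, 5 with array weights (4 of the 8, plus TPP2) and 0 with the line as a random unit. In AGR3/8 root (8 members) the count was 3 with no filter. One fit of all 32 arrays gave 9 for the root mean, with HXK4 (LOC4326776), SWEET2A, SWEET2B probe set 2 and SUS2 lost and AGPS2, SPS6, SWEET1A probe set 1, SWEET14 probe set 1 and SUS6 probe set 2 added. It gave 4 in AGR1/7 root (2 otherwise), 5 in AGR1/8 root (2), 1 in AGR1/7 shoot (2), 0 in AGR1/8 shoot (1), 1 in AGR3/8 shoot (0) and 0 for the shoot mean (1). For the shoot mean, array weights gave 2 and the line as a random unit 0. Array weights gave 10 for differences among the lines in root (2). The cause was not tested. Leaving out 1 array gave 2 to 8 members for the root mean, 1 to 3 for AGR1/7 roots, 1 to 5 for AGR1/8 roots, 0 to 11 for AGR3/8 roots, and 1 to 6 among the lines in root. For shoot it gave 0 to 2 for the mean, 1 to 3 for AGR1/7, 0 to 1 for AGR1/8, 0 to 1 for AGR3/8 and 0 to 2 among the lines. It gave 48 to 51 for wild type root minus shoot and 1 to 5 for the difference between tissues. For the root mean 13 of the 16 arrays moved the count by over 1.5 times, all but wild type replicate 2, AGR1/7 replicate 1 and AGR1/8 replicate 4, with 2 without wild type replicate 1 and 3 to 5 without the other 12. In AGR3/8 root the count was 0 without AGR3/8 replicate 2 or 3. In AGR1/8 root it was 5 without wild type replicate 2 and 1 without wild type replicate 1, 3 or 4 or AGR1/8 replicate 2 or 3, and in AGR1/7 root 1 without AGR1/7 replicate 4. The SPS2 (LOC9267741) call of the shoot mean was lost without wild type replicate 2 or 3. Under the alternatives run for them, the calls of HXK4 (LOC4326776) in AGR1/8 (0.63 to 1.00), HXK7 in AGR1/7 (0.47 to 0.67), SPS2 (LOC9267741) in AGR1/7 shoot (-0.73 to -0.57) and SUS4 for the difference between tissues (0.44 to 0.60) were kept each time. The line as a random unit was not among these, as it was fitted for the root and shoot means of the lines alone. Of 9229 alternative values of single members, 259 differed in sign from the reported value, none of them a called value, and the largest reported size among them was 0.37 (TPP7 probe set 1 in root). Replicate numbers were not taken to pair the samples in the main fits, and no fit paired the root and shoot of 1 line and number. Deviations from the group mean correlated over 0.1 in 9 of 24 same-numbered pairs of root arrays, against 16 of 72 pairs with different numbers. In shoot these were 1 of 24 and 1 of 72. For root with shoot of 1 line they were 3 of 16 with the same number and 0 of 48 with different numbers. With the replicate block the counts were 7 for the root mean, 2, 2 and 7 in AGR1/7, AGR1/8 and AGR3/8 roots, 2 among the lines in root, 1 for the shoot mean, 2, 1 and 0 in AGR1/7, AGR1/8 and AGR3/8 shoots, 0 among the lines in shoot, 51 for wild type root minus shoot and 2 for the difference between tissues.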
